A study of Mus musculus with 12 samples.

Results

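The genes of bile acid synthesis and transport were followed in liver (LIV) and subcutaneous inguinal adipose tissue (SAT) of mice on a high-fat diet, of which some received a drug against S6K1, a kinase that phosphorylates a ribosomal protein. The 34 genes were named from their role, and a probe set was a member when its gene symbol, old or current, was on the list. All 34 had exactly 1 probe set, out of 22206 probe sets tested. They were sorted into 8 steps: classic synthesis, acidic synthesis and muricholate formation, side chain shortening, conjugation, uptake, canalicular export, basolateral export, and receptors with their control of synthesis. The drug group held 3 male C57BL/6N mice on a high-fat diet that received LY2584702 tosylate (HFD + LY, animals 16, 18 and 20), and the control group held 3 male C57BL/6N mice on the same diet without the drug (HFD, animals 8, 11 and 14), whose descriptions name vehicle while their treatment label reads untreated. The mice were 8 weeks old at the start. The drug was given by oral gavage at 25 mg/kg every 12 hours for 12 weeks, and the diet, with 60% of its kcal from fat, for the last 10 of them. It reached the whole animal, so no cell type was targeted.

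Bile acids are made from cholesterol in hepatocytes. In the classic route Cyp7a1 takes the first and rate-limiting step and Cyp8b1 adds the hydroxyl group that makes cholic acid; in the acidic route Cyp27a1 and Cyp7b1 act first, and in mice Cyp2c70 makes muricholic acids. After side chain shortening in peroxisomes and coupling to taurine, the acids are pumped into bile by Abcb11, taken back in the ileum by Slc10a2 and returned to hepatocytes by Slc10a1. The bile acid receptor FXR (Nr1h4) holds synthesis in check through SHP (Nr0b2) in the liver and through a gut hormone, FGF15, that acts on hepatocytes by way of Fgfr4 and its co-receptor Klb.

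Each array measured RNA of 1 tissue of 1 mouse, 12 arrays in all, as log2 signals per probe set. A difference of 1 on this scale is a doubling. Array medians ran from 8.16 to 8.28, and precision was limited by how few arrays there were. With 3 mice in each group, the smallest two-sided p that exact permutation can give is 0.1. The p-values below come from limma, fitted over all 22206 probe sets. The labels fitted the defining markers, with a mean signal of 7 hepatocyte genes of 13.62 to 13.68 in HFD + LY livers and 13.60 to 13.65 in HFD livers, against 7.56 to 7.78 in HFD + LY SAT and 7.75 to 7.92 in HFD SAT. Of the 8 genes on the skeletal muscle list, the mean signal was 7.60 to 12.68 in HFD + LY SAT and 7.71 to 13.01 in HFD SAT, with the highest values in animals 20 and 11. The 4 members at an unadjusted p under 0.05 in SAT are therefore also given without these 2 mice. The mean of 7 adipocyte genes in LIV was 8.40 to 8.51 in HFD + LY mice and 8.68 to 8.73 in HFD mice, without overlap. Of these, Cidec, Fabp4 and Lep had fold changes of -0.50, -0.42 and -0.37 in LIV and Plin1 of 0.00, and Pck1, which hepatocytes also use, was 0.79 higher in LIV than in SAT.

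Slc10a2 and Klb were the 2 members at an unadjusted p under 0.05 in limma's test of the treatment difference in LIV against that in SAT. Neither passed an adjusted p under 0.05 (0.304 and 0.769), and 6.21% of all probe sets passed the unadjusted threshold. Both are shown by the 250 bases before their transcription start, from RefSeq on GRCm38.p6, each read on the strand of its gene. Slc10a2 lies on the minus strand with its window at chr8:5105288-5105537, and Klb on the plus strand at chr5:65348161-65348410. Capitals mark matches to any of 5 motifs searched on both strands. The window of Slc10a2 held a match to a loose AP-1 pattern (TGANTCA, at -118 to -112). This pattern allows any base in the middle, and here the letters were TGATTCA. The window of Klb held none of the 5, so all its letters are lower case.
Slc10a2: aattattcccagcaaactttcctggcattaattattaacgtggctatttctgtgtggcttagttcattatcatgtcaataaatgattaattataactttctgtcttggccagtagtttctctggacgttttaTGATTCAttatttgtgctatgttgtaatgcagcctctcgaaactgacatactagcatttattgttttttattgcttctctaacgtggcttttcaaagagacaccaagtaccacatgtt
Klb: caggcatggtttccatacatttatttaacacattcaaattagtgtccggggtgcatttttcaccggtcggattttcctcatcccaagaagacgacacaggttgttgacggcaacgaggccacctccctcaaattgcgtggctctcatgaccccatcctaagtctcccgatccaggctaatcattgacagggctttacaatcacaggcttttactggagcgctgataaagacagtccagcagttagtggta

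Over 32851 promoter windows of the same length, 6.75% held a match to this loose AP-1 pattern. The other motifs were the nuclear receptor half-site AGGTCA (14% of all windows), the HNF4A site CAAAGTCCA (0.384%), the LRH-1 core TCAAGG (12.5%) and the FXR inverted repeat, which is made of that half-site and its mirror with 1 base between and so overlaps it (0.00609%). Windows were given for 26 of the 34 members, some with several. The nuclear receptor half-site stood in 12 of their 31 windows, the HNF4A site in 2 (Cyp8b1 and Cyp2c70) and the inverted repeat in 0. The LRH-1 core stood in 3 (Akr1d1, Nr0b2 and Scp2), and the loose AP-1 pattern in 4 (of Acox2, Slc10a2 and Slc51b). These matches describe letters only.

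In LIV of HFD + LY mice the pathway stood close to its level in HFD mice, apart from the apical sodium-dependent bile acid transporter Slc10a2. Of the 34 members, 0 passed an adjusted p under 0.05, as did 1 of all 22206 probe sets (0.0045%). At an unadjusted p under 0.05 there was 1 member, Slc10a2, where 6.9% of all probe sets passed. The median log2 fold change was 0.02 over the members and -0.01 over all probe sets, and 21 of 34 members lay above 0, against 48.1% of all probe sets. Excluding Slc10a2, the fold changes of the 33 other members ran from -0.24 to 0.22 with a median of 0.03. For 32 of these 33 the 95% interval of the difference stayed within a 1.5-fold change either way. That of Nr0b2, from -0.65 to 0.48, did not. The 32 include Abcc4, Slc51a and Slc51b, which lay below the array medians in LIV, where a change may not have been measurable. The 3 livers of each group did not overlap for 6 members (17.6%), beside 12.5% of all probe sets.

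**Figure D1:**
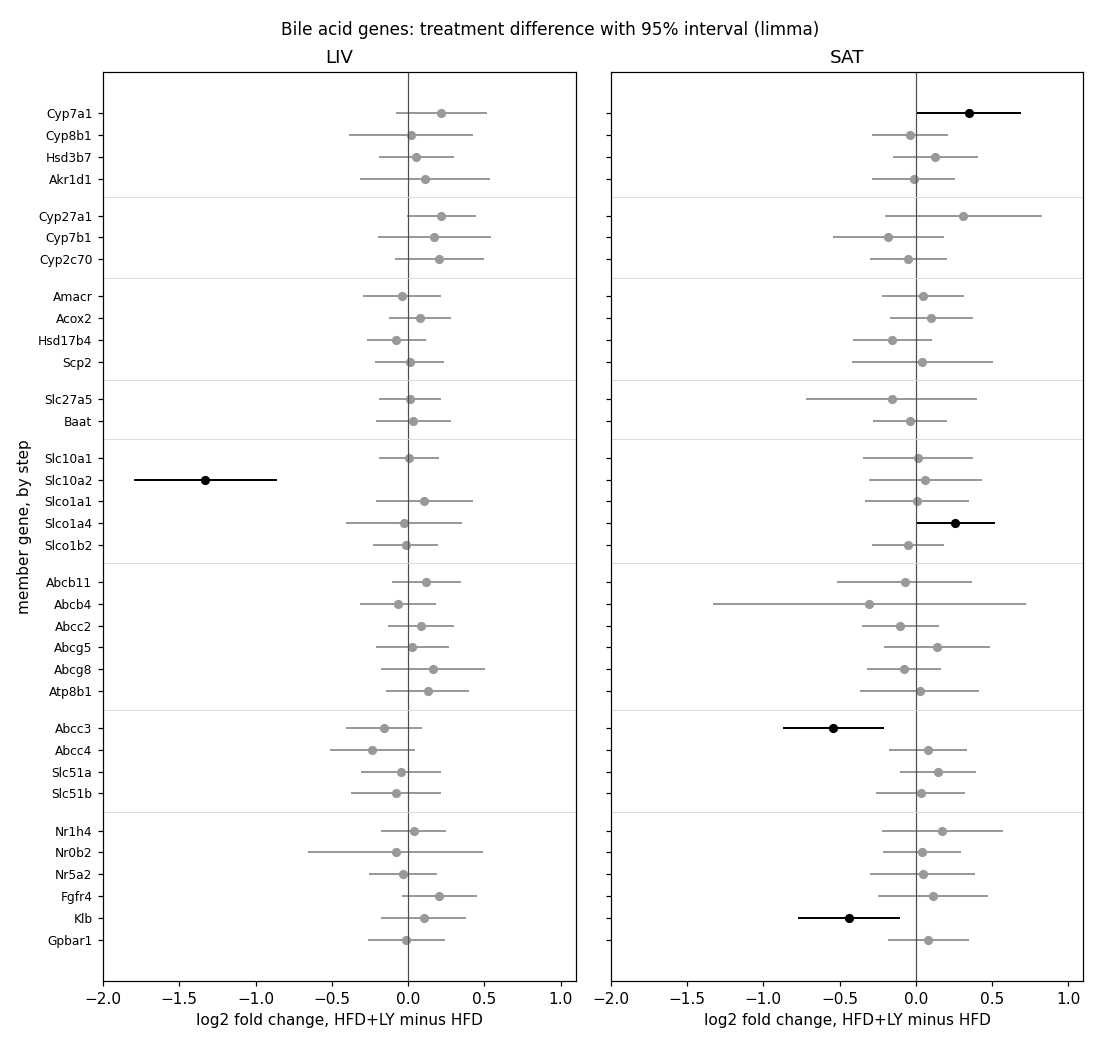
Treatment difference of each of the 34 members (rows, by step, from classic synthesis at the top to receptors at the bottom) in LIV (left) and SAT (right), as log2 fold change of HFD + LY minus HFD with its 95% interval from limma, n = 3 mice a group. Black marks an unadjusted p under 0.05: Slc10a2 at -1.33 in LIV, and Cyp7a1, Slco1a4, Abcc3 and Klb in SAT.

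Slc10a2 takes up bile acids with sodium at the luminal side of ileal enterocytes, bile duct cells and kidney tubules. Its log2 signal was 6.95, 7.53 and 7.49 in HFD + LY livers (animals 16, 18 and 20), against 9.04, 8.52 and 8.40 in HFD livers (animals 8, 11 and 14). Every HFD + LY liver lay below every HFD liver, by 0.87 at the nearest pair of values. The means were 7.32 ± 0.32 in HFD + LY livers and 8.65 ± 0.34 in HFD livers (SD, n = 3 each), a log2 fold change of -1.33 (standard error 0.20, 95% interval -1.79 to -0.87), or 2.51-fold lower in signal. The HFD + LY livers lay below the median of every array, and with no detection call used here it is not known whether these signals were above background. It was the third lowest fold change among the 22206 probe sets and the 9th by p, with an unadjusted p of 0.000128 and an adjusted p of 0.316, so the difference did not pass the threshold over all probe sets. Leaving out each animal in turn gave -1.46 to -1.14. In SAT the signal of Slc10a2 was 5.18, 4.94 and 5.39 in HFD + LY mice and 5.21, 5.27 and 4.84 in HFD mice, which overlapped (log2 fold change 0.06). All 6 lay far below the array medians, so a fall of the size seen in LIV may not have been measurable in SAT. The treatment difference in LIV minus that in SAT was -1.39 (standard error 0.28, unadjusted p = 0.000343, adjusted p = 0.304).

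Other genes of the cells that use Slc10a2 were looked up beside it. Of 8 cholangiocyte markers, 5 were measured, and their mean in LIV was 7.14 to 7.42 in HFD + LY mice and 7.37 to 7.61 in HFD mice, which overlapped. Krt19, a keratin of bile ducts, had signals of 6.47, 6.34 and 6.82 in HFD + LY livers and 7.67, 6.82 and 6.81 in HFD livers (log2 fold change -0.56, unadjusted p = 0.041, adjusted p = 0.719). Animal 8 had the highest signal of Slc10a2 and of Krt19, Epcam and Cftr. For Krt7 and Sox9 it was the lowest of the HFD livers, at 8.63 and 7.99. Among Kupffer cell and macrophage genes it was highest for Clec4f, Vsig4, Timd4, Cd5l and Csf1r, but not for Marco or Adgre1. The 4 cholangiocyte markers other than Krt19 had fold changes of -0.32 (Krt7), -0.17 (Epcam), -0.07 (Sox9) and -0.02 (Cftr), and 0 of them passed an unadjusted p under 0.05. In bulk tissue, fewer cells of a type and less RNA per cell cannot be told apart, and the part of bile duct cells in the value of Slc10a2 was not tested. Of 8 genes listed for kidney and ileum, 7 had a signal in LIV of 6.25 to 8.69 in HFD + LY mice and 6.44 to 8.83 in HFD mice. The eighth, Fabp2, was at 12.35 to 12.57 in HFD + LY livers and 12.50 to 12.63 in HFD livers, so it does not mark the absence of gut tissue here. Of 8 male-predominant liver genes, 2 were lower at an unadjusted p under 0.05: Cyp4a12b, which fell (log2 fold change -1.53, adjusted p = 0.0016), and Cyp4a12a (-1.23, adjusted p = 0.292), whose probe sets may share targets. The median fold change of the 8 was -0.01, with 4 of 8 above 0. The part of these in the value of Slc10a2 was not tested either.

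**Figure D2:**
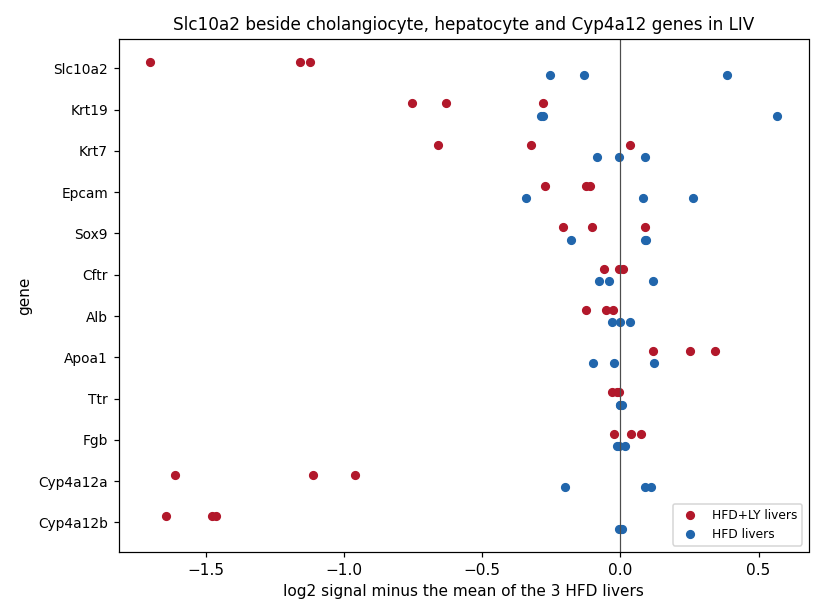
Log2 signal in each liver minus the mean of the 3 HFD livers (x axis), for Slc10a2, 5 cholangiocyte markers, 4 hepatocyte markers and both Cyp4a12 genes (rows); HFD + LY livers are drawn above HFD livers in each row. For Slc10a2, both Cyp4a12 genes and the hepatocyte marker Ttr (log2 fold change -0.02), the 3 HFD + LY livers lie below the 3 HFD livers. For Krt19 they overlap. Of the 7 hepatocyte markers measured, 4 are drawn, and Cps1, not drawn, was higher without overlap (0.10).

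The members of classic synthesis had fold changes of 0.02 to 0.22 in LIV, with 0 of 4 past an unadjusted p under 0.05. Cyp7a1 had signals of 11.57, 11.59 and 11.68 in HFD + LY livers, against 11.47, 11.59 and 11.12 in HFD livers (log2 fold change 0.22, 95% interval -0.08 to 0.51, unadjusted p = 0.126). The HFD + LY livers were tightly grouped and overlapped the HFD livers, of which animal 14 was lowest. Cyp8b1 had 11.77, 12.53 and 12.22 in HFD + LY livers and 12.25, 12.17 and 12.04 in HFD livers (log2 fold change 0.02, 95% interval -0.38 to 0.42). Its 3 HFD + LY livers spanned more than the HFD livers, with animal 16 lowest and animal 18 highest. Hsd3b7, which oxidises the sterol ring, and Akr1d1, which reduces it, differed by 0.05 and 0.11.

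In the acidic route, Cyp27a1, a mitochondrial sterol 27-hydroxylase, had signals of 13.15, 13.34 and 13.33 in HFD + LY livers and 13.13, 13.07 and 12.97 in HFD livers. These did not overlap, with 0.02 between the nearest mice. Its log2 fold change was 0.22 (standard error 0.10, 95% interval -0.00 to 0.44, unadjusted p = 0.053, adjusted p = 0.719), and 7 of 14 alternatives brought the unadjusted p under 0.05. Other alternatives weakened it: the unadjusted p was 0.255 in the limma fit of all 12 arrays and 0.259 with the mouse as a random block. Cyp7b1, the oxysterol 7-hydroxylase, had 11.49, 11.45 and 11.29 in HFD + LY livers, against 11.49, 11.35 and 10.86 in HFD livers (log2 fold change 0.17, unadjusted p = 0.311), and animal 14 was again the lowest. Without animal 14 the fold change of Cyp7b1 was -0.02. Cyp2c70 differed by 0.20 (unadjusted p = 0.141). All 4 members of classic synthesis and all 3 of the acidic route thus had a fold change above 0, also after quantile normalization or median centring. For classic synthesis this held without animal 8, but was 3 of 4 without animal 11, 14, 16, 18 or 20, and for the acidic route it was 2 of 3 without animal 14 and 3 of 3 without each of the others. These counts have no test.

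The members of side chain shortening and conjugation all differed by less than 0.1 on the log2 scale. Acox2, the peroxisomal oxidase of branched side chains, had 12.05, 12.01 and 12.01 in HFD + LY livers and 11.87, 11.97 and 12.00 in HFD livers (log2 fold change 0.08, unadjusted p = 0.396). Hsd17b4, which carries out the next steps, had 12.20, 12.19 and 12.20 in HFD + LY livers and 12.28, 12.30 and 12.25 in HFD livers (log2 fold change -0.08, unadjusted p = 0.37). Neither overlapped between the groups. Baat, which couples bile acids to taurine, had 11.35, 11.35 and 11.23 in HFD + LY livers, against 11.40, 11.11 and 11.32 in HFD livers (log2 fold change 0.03, 95% interval -0.21 to 0.27). The other members, Amacr, Scp2 and the bile acid CoA ligase Slc27a5, differed by -0.04, 0.01 and 0.01.

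Among uptake carriers of the hepatocyte, Slc10a1 (NTCP), the main sodium-coupled one, had nearly equal values, of 13.29, 13.36 and 13.30 in HFD + LY livers, and 13.29, 13.34 and 13.31 in HFD livers (log2 fold change 0.00, 95% interval -0.19 to 0.19). These overlapped throughout, in contrast to its ileal relative Slc10a2. The sodium-independent carriers Slco1a1, Slco1a4 and Slco1b2 differed by 0.11, -0.03 and -0.02, with unadjusted p-values of 0.455, 0.875 and 0.861. Probe sets of such paralogues may share targets.

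At the canalicular side, where bile is formed, Abcb11, the bile salt export pump, had 11.17, 11.13 and 11.24 in HFD + LY livers, against 11.19, 11.04 and 10.96 in HFD livers (log2 fold change 0.12, 95% interval -0.10 to 0.34, unadjusted p = 0.244). The groups overlapped through animal 8. The phospholipid floppase Abcb4, the conjugate pump Abcc2, the sterol half-transporters Abcg5 and Abcg8 and the flippase Atp8b1 had fold changes of -0.07 to 0.16, and 0 of the 6 members of this step passed an unadjusted p under 0.05. The 4 basolateral exporters, which return bile acids to the blood, all had a fold change below 0, from -0.24 to -0.05, also after both rescalings, but without animal 8 or 16 this held for 3 of 4. Abcc4, Slc51a and Slc51b lay below the median of every array in all livers. Whether their signals were above background is not known, which limits what the shared direction means. Abcc4 (MRP4), a pump of the sinusoidal membrane, had 7.71, 7.52 and 7.76 in HFD + LY livers and 7.77, 8.10 and 7.81 in HFD livers (log2 fold change -0.24, 95% interval -0.51 to 0.04, unadjusted p = 0.0806). These did not overlap, with 0.02 between the nearest mice. Abcc3 (MRP3) differed by -0.16 (unadjusted p = 0.173), and the subunits of the steroid transporter OST, Slc51a and Slc51b, by -0.05 and -0.08.

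Of the receptors and the feedback on synthesis, Nr1h4 (FXR) had 11.70, 11.69 and 11.61 in HFD + LY livers and 11.73, 11.62 and 11.55 in HFD livers (log2 fold change 0.04, 95% interval -0.17 to 0.24). Its target Nr0b2 (SHP), a repressor of Cyp7a1 and Cyp8b1, varied most of all members between livers of 1 group (SD 0.53 in HFD + LY livers), at 11.29, 11.12 and 10.30 in HFD + LY livers and 10.96, 10.72 and 11.27 in HFD livers. Animal 20 was lowest and the groups overlapped (log2 fold change -0.08, and 0.22 without animal 20). Fgfr4, the hepatic FGF15 receptor, had 10.69, 11.002 and 10.78 in HFD + LY livers, against 10.60, 10.68 and 10.58 in HFD livers (log2 fold change 0.21, 95% interval -0.03 to 0.45, unadjusted p = 0.0847). These did not overlap, with 0.01 between animals 16 and 11. Klb (beta-klotho) had 10.61, 10.66 and 10.31 in HFD + LY livers and 10.53, 10.44 and 10.30 in HFD livers, with overlap (log2 fold change 0.10, unadjusted p = 0.417). Nr5a2 (LRH-1), an activator of the synthesis genes, and Gpbar1 (TGR5), the membrane receptor of bile acids, differed by -0.04 and -0.01.

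**Figure D3:**
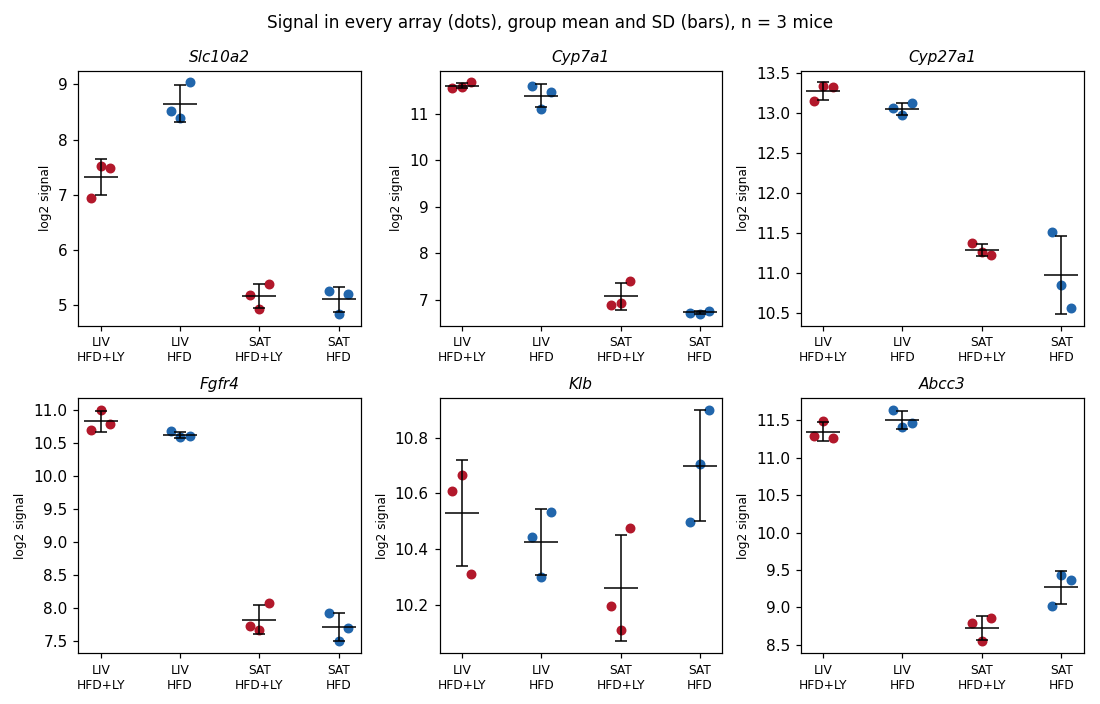
Log2 signal (y axis, with a scale of its own for each gene) of 6 members in every array (dots), with group mean and SD (bars, n = 3 mice), for HFD + LY left of HFD in LIV and then in SAT. Slc10a2 is lower in HFD + LY livers, and Klb and Abcc3 are lower in HFD + LY SAT, each without overlap.

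In SAT, where most of the pathway was at a far lower signal, 0 members passed an adjusted p under 0.05, like 0 of all probe sets (0%). At an unadjusted p under 0.05 there were 4 of 34, with 5.05% of all probe sets, and the same 4 were those whose groups did not overlap (11.8%, beside 9.49% of all probe sets). Abcc3, an exporter of organic anions and conjugated bile acids, had 8.79, 8.54 and 8.85 in HFD + LY SAT and 9.36, 9.02 and 9.43 in HFD SAT. All HFD + LY mice lay below all HFD mice (log2 fold change -0.54, standard error 0.14, 95% interval -0.87 to -0.22, unadjusted p = 0.00488, adjusted p = 0.908). Klb, which in adipocytes makes FGF receptor 1 responsive to FGF21, had 10.20, 10.11 and 10.48 in HFD + LY SAT, against 10.90, 10.50 and 10.70 in HFD SAT. Here the groups were set apart by 0.02 at the nearest (log2 fold change -0.44, standard error 0.14, 95% interval -0.77 to -0.11, unadjusted p = 0.0148, adjusted p = 0.949).

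Neither difference was smaller without the 2 mice with the highest muscle signal. Among the SAT arrays kept, the muscle list mean was 9.25 in animal 14 and 7.71 in animal 8, against 7.60 and 7.68 in the HFD + LY mice. Muscle signal thus still differed between the groups, and its part in the values of Abcc3 and Klb was not tested. With animals 11 and 20 left out, which leaves 2 SAT arrays a group, Abcc3 was at -0.73 (adjusted p = 0.0256) and Klb at -0.65 (adjusted p = 0.0315), in a fit that called 573 of all probe sets. The unadjusted p of Klb was above 0.05 under 3 of 15 alternatives: without animal 8 (0.0561), without animal 18 (0.0563) and with the methods' t-test. Higher in HFD + LY SAT were Cyp7a1, at 6.89, 6.93 and 7.40 in HFD + LY mice and 6.77, 6.72 and 6.70 in HFD mice (log2 fold change 0.35, unadjusted p = 0.0431), and Slco1a4, at 5.68, 5.98 and 5.90 in HFD + LY mice and 5.57, 5.68 and 5.54 in HFD mice (log2 fold change 0.26, unadjusted p = 0.0455). Both lay below the array median in all SAT arrays, and the highest Cyp7a1 value was that of animal 20. Without animal 20 the fold change of Cyp7a1 was 0.18 (unadjusted p = 0.0762), and without animals 11 and 20 it was 0.18 (unadjusted p = 0.10). Slco1a4 without both was at 0.28 (unadjusted p = 0.0563). The unadjusted p was above 0.05 under 7 of 14 alternatives for Cyp7a1 and under 9 of 14 for Slco1a4. The widest interval among the members in SAT was that of Abcb4, from -1.33 to 0.72. Its signals were 7.11, 7.27 and 8.20 in HFD + LY mice and 7.42, 8.84 and 7.24 in HFD mice. They were highest in animals 11 and 20, the 2 mice with the highest muscle signal, and the part of muscle in them was not tested. Abcb4 was picked out here after its values were seen.

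The difference between the tissues in the treatment effect was tested as an interaction over all 12 arrays. At an unadjusted p under 0.05 there were 2 of 34 members, Slc10a2 and Klb, with 6.21% of all probe sets, and 0 at an adjusted p, with 0.0405% of all probe sets. For Klb the difference in LIV minus that in SAT was 0.54 (standard error 0.19, 95% interval 0.12 to 0.96, unadjusted p = 0.0157, adjusted p = 0.769), and the unadjusted p was above 0.05 without animal 14, 16 or 18 (0.0648, 0.0711 and 0.0917). For Abcc3 it was 0.38 (95% interval -0.01 to 0.78, unadjusted p = 0.055), so a difference of Abcc3 between the tissues was not shown.

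Most members were liver genes by their signal. In LIV, 29 of 34 were higher than in SAT at an adjusted p under 0.05, where 30.7% of all probe sets were higher, and 1 was lower, where 29.2% of all were. The hepatocyte carriers Slc10a1 and Slco1b2 had signals 7.51 (adjusted p = 1.07e-15) and 7.39 above SAT, and Akr1d1 6.87. In SAT all 3 lay below the array medians, so the size of these differences depends on the background of each probe set and gives no order. In every one of the 6 mice the liver lay higher by 7.37 to 7.78 for Slc10a1. The widely used peroxisomal gene Hsd17b4 differed by 0.28 (adjusted p = 0.00214) and Atp8b1 by 0.95. Abcc4 was lower in LIV, by -0.97 to -0.89 in the 3 HFD + LY mice and by -0.68 to -0.57 in the 3 HFD mice (log2 difference over all mice -0.78, adjusted p = 2.83e-06). Klb, Gpbar1, Slc51a and Slc51b did not pass, with differences of -0.00, 0.02, 0.07 and 0.04. Slc10a2 was higher in LIV by 1.77, 2.59 and 2.10 in HFD + LY mice, against 3.82, 3.25 and 3.56 in HFD mice, without overlap between the groups. The share of all probe sets whose groups lie apart in this way was not counted. For Klb, LIV minus SAT was 0.41, 0.56 and -0.17 in HFD + LY mice and -0.37, -0.05 and -0.41 in HFD mice, so the tissue with the higher signal was LIV in 2 of the 3 HFD + LY mice and SAT in the 3 HFD mice.

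**Figure D4:**
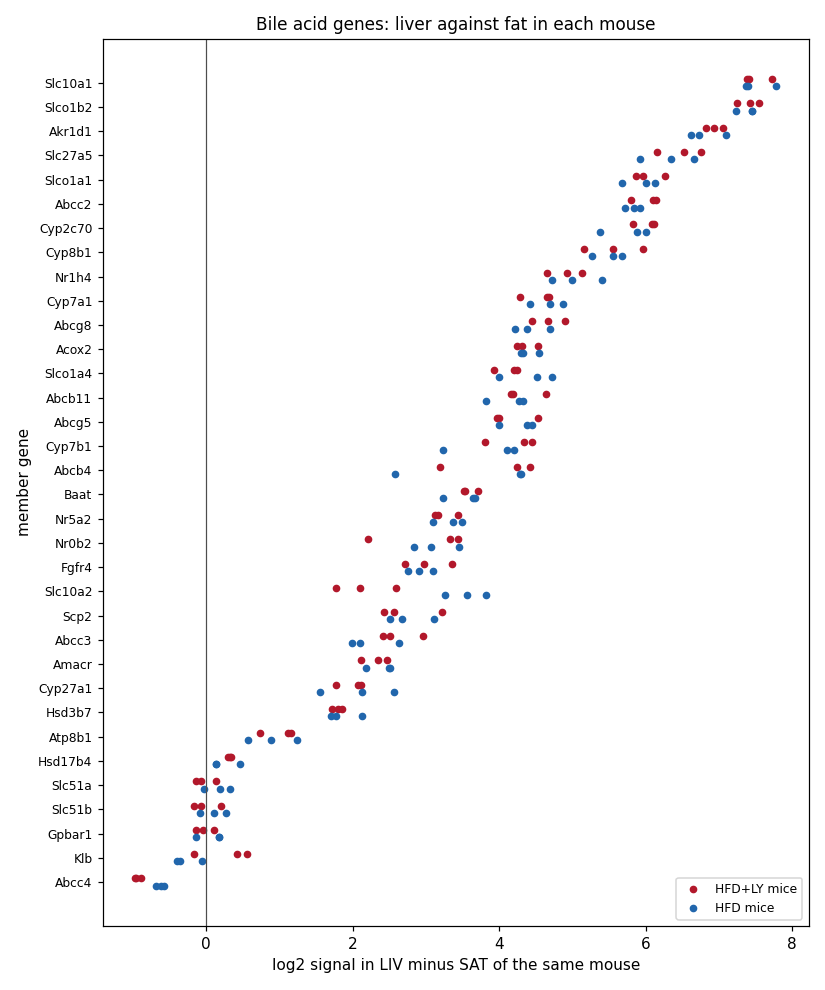
Log2 signal in LIV minus SAT of the same mouse (x axis) for each member (rows, ordered by the mean difference), with HFD + LY mice drawn above HFD mice. Values run from -0.97 for Abcc4 to 7.78 for Slc10a1. The groups lie apart for Slc10a2 and Abcc4, and the share of all probe sets that do so was not counted.

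A further 42 genes tied to bile acids, their modification, carriers, hormones and nuclear receptors were listed, of which 38 were measured. In LIV, 0 of these 38 passed an unadjusted p under 0.05 in limma, beside 6.9% of all probe sets, and 3 did not overlap between the groups (7.89%, beside 12.5%). Their median log2 fold change was -0.03, from -0.25 for Fgf21, a fasting hormone that signals through Klb, to 0.42 for Abcd3, the peroxisomal transporter of bile acid precursors. In SAT, 1 of 38 was higher at an unadjusted p under 0.05 and 0 lower, beside 5.05% of all probe sets in either direction. This was Slc10a6, a carrier of steroid sulphates of the same family as Slc10a2, picked out after its values were seen. It had 8.997, 8.985 and 8.976 in HFD + LY SAT and 8.47, 8.60 and 8.52 in HFD SAT (log2 fold change 0.46, unadjusted p = 0.000878, adjusted p = 0.724). In LIV it had 6.87, 7.01 and 7.44 in HFD + LY mice and 7.09, 7.60 and 7.25 in HFD mice, which overlapped, and the difference in LIV minus that in SAT was -0.66 (unadjusted p = 0.00848, adjusted p = 0.754).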

How the data were processed

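RNA of LIV and SAT of 3 HFD + LY and 3 HFD mice was hybridised to 12 Affymetrix whole-transcript arrays. The authors deposited log2 signals from RMA (background correction, quantile normalization over arrays and 1 summary value a probe set). The versions of RMA and of the authors' limma are not given in the sources used here. If both tissues were normalized together, which the paper does not state, this can shrink differences between them. The table holds 28846 probe sets. Removing 6640 controls left 22206 for the fits, with no filter on dim signals. Gene symbols came from the platform annotation, updated through RefSeq gene numbers (19572 probe sets with a symbol, 2634 without). Levels of different probe sets were not compared with each other.

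For LIV and for SAT, limma 3.58.1 in R 4.3.3 gave HFD + LY minus HFD, with a prior variance common to all probe sets and 4 residual degrees of freedom. P-values were adjusted by Benjamini and Hochberg's method across the 22206, and 0.05 was the threshold. The tissue difference and the tissue by treatment interaction were fitted on all 12 arrays. Each array of a tissue is another mouse. The same 6 mice gave both tissues, by their numbers in the labels, and the deviations of LIV and SAT of a mouse from their group means correlated by -0.067 to 0.21 over probe sets. The fit with the mouse as a block was an alternative.

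The members and lists were chosen with earlier results of these data known. Values in every array are given for members at an unadjusted p under 0.05 in LIV, SAT or the interaction, for members without overlap in LIV, and for the defining genes Cyp7a1, Cyp8b1, Cyp27a1, Cyp7b1, Baat, Slc10a1, Abcb11, Nr1h4, Nr0b2, Fgfr4 and Klb. The other members are given by their fold changes. The marker lists were hepatocyte, pericentral and periportal hepatocyte, adipocyte, cholangiocyte, Kupffer cell and macrophage, skeletal muscle, male-predominant liver genes, and kidney and ileum. In LIV the mean of the Kupffer cell list was 8.27 to 8.60 in HFD + LY mice and 8.49 to 8.93 in HFD mice, that of the pericentral list 11.62 to 11.70 in HFD + LY mice and 11.63 to 11.72 in HFD mice, that of the periportal list 11.07 to 11.22 in HFD + LY mice and 11.20 to 11.26 in HFD mice, and that of the male-predominant list 11.88 to 11.94 in HFD + LY mice and 12.11 to 12.25 in HFD mice, where Cyp4a12a and Cyp4a12b were at -1.23 and -1.53 and the list's median fold change was -0.01. Of the Kupffer cell list, 0 of 7 genes had a fold change above 0 in LIV (median -0.37). Cd5l was at -0.44 without overlap (limma, unadjusted p = 0.0152, adjusted p = 0.687). Above 0 were also 0 of 5 cholangiocyte and 0 of 8 kidney and ileum genes, but 7 of 8 skeletal muscle genes. The part of these in the value of Slc10a2 was not tested. Alternatives were another prior, array weights, other scaling, a filter on dim probe sets, the methods' t-test, and leaving out mice. The fits were tested on simulated data. Plots were made in Python 3.11.15 (matplotlib 3.10.9).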

Additional observations from a re-analysis of the deposited data

Results flagged for a closer look

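Both results below stand out because the treatment difference in LIV was unlike that in SAT in limma's interaction test at an unadjusted p under 0.05; neither passed the adjusted threshold, and no cause was tested. For Slc10a2 the difference in LIV minus that in SAT was -1.39 (adjusted p = 0.304, -1.61 to -1.20 without each mouse in turn), with a signal in LIV that was lower in 3 of 3 HFD + LY mice than in each HFD mouse. In SAT, Slc10a2 lay at 4.84 to 5.39 in all 6 mice, far below the array medians, so a fall of that size may not have been measurable there and the difference between the tissues is not shown to be one of response. For Klb it was 0.54 (adjusted p = 0.769, 0.40 to 0.76 without each mouse in turn), with a signal in SAT that was lower in 3 of 3 HFD + LY mice than in each HFD mouse.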

How the results depend on the processing

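The fold changes of Slc10a2 in LIV and Abcc3 in SAT kept their sign under all 14 and all 15 alternatives. Their unadjusted p stayed under 0.05 in each. The joint fit of all arrays, the mouse as a random block, another prior, the dim filter and the t-test cannot move a fold change. Slc10a2 passed the dim filter through its HFD livers alone (mean 8.65, against 7.32 in HFD + LY livers), so that setting adds no support. In LIV, 0 members passed an adjusted p under any of the 14. The count of 30 members that differed between LIV and SAT was 30 under all 13. With the mouse as a random replicate block, the members at an unadjusted p under 0.05 were 1 in LIV and 3 in SAT. As a fixed replicate block they were 3 in the interaction, and no other call changed. The random block fit also shares 1 spread between LIV and SAT, so its changes are not those of pairing alone. The adjusted p of Slc10a2 in LIV was 0.0695 in the limma fit of all 12 arrays without a block and 0.0692 with it. The count at an unadjusted p in LIV was 3 with an intensity trend in the prior, with array weights and with the methods' t-test, 2 with median centring or without dim probe sets (31 members left), and 1 to 4 without each mouse in turn. In SAT it was 2 without dim probe sets (9 members left), 1 with the methods' t-test and 1 to 5 without each mouse in turn. At an adjusted p, 2 members (Abcc3 and Klb) passed in SAT with array weights, which put 4.46 on animal 16, and 2 without animals 11 and 20. In the interaction the count was 6 with array weights, 5 with SAT of animals 11 and 20 left out, and 1 to 4 without each mouse in turn. Over all probe sets, the calls at an adjusted p in LIV were 7 with the intensity trend, those in SAT 355 with array weights and 573 without animals 11 and 20, and those in the interaction 58 and 139. The cause of these changes was not tested. Small fold changes in LIV turned sign. Baat was at -0.0013 after quantile normalization and Slc10a1 at -0.0010 with array weights. Without each mouse in turn, Baat ran from -0.052 to 0.10, Slc10a1 from -0.017 to 0.018, Cyp8b1 from -0.16 to 0.22, Cyp7b1 from -0.016 to 0.30, Nr1h4 from -0.0058 to 0.084 and Nr0b2 from -0.28 to 0.22. Averaging the probe sets of a gene gave no other value, since each member has 1. Values at low signal, as for most members in SAT, limit what can be seen there.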
